A study of Mus musculus with 14 samples.

Results

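S100a5 encodes a small calcium-binding protein of the S100 family, and it was taken here as a single gene, found by its symbol in the first column of both expression tables. It is 1 of 51211 gene symbols in those tables. The measurements were bulk RNA-seq of olfactory epithelium from individual mouse pups at postnatal day 5 (P5), 14 mice in 2 experiments that ask how spontaneous activity and odor exposure in early life alter the neurons of the nose. In the Kir2.1 experiment, 3 pups carried OMP-IRES-tTA together with tetO-Kir2.1-IRES-tauLacZ, and 3 littermate controls carried OMP-IRES-tTA without the Kir2.1 transgene. The controls therefore also carried the tTA activator, and tTA is made from the Omp locus, which is active in mature olfactory sensory neurons (OSNs) and in vomeronasal neurons. The Kir2.1 pups have the label Kir2.1-Off, a name that the study otherwise uses for adults fed doxycycline, and they are called Kir2.1 mice below. In the PEA experiment, 4 wild-type pups were exposed to 2-phenylethylamine (PEA), an amine odor that mice avoid, from birth until P5, and 4 unexposed wild-type pups served as controls. The labels give the strain of all mice as C57BL/6, whereas the methods of the study name CD-1 pups for PEA. The library of the fourth unexposed pup carries the number 5 in its name.

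S100 proteins are small proteins with a pair of EF-hand motifs that bind calcium and then contact partner proteins. In the olfactory epithelium S100a5 RNA is found mainly in mature OSNs, the cells that detect odorants through odorant receptors on cilia and raise cAMP and calcium when they do. Its RNA is known to follow the activity of these neurons, falling when the nostril is closed and rising in neurons whose odorant is present. Kir2.1, encoded by Kcnj2, is an inwardly rectifying potassium channel that holds neurons near their resting potential, so that they fire less.

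The S100a5 gene (ENSMUSG00000001023.10) lies on the plus strand of mouse chromosome 3, from 90608523 to 90611780 in the GRCm38 build. GENCODE lists 2 transcripts for it. The longer, of 431 bp, has exons at 90608523-90608532, 90609811-90609961 and 90611511-90611780, and the shorter, of 422 bp, starts at 90609810 and lacks the first of these exons. S100a5 sits in the S100 gene cluster, where S100a4 ends 2477 bp before it and S100a6 starts 1101 bp after it, both on the same strand. No exon of S100a5 overlaps an exon of another annotated gene. Of the 401 stretches of 31 bases in its transcripts, 0 also occurred on either strand in the transcripts of any other gene, so reads of that length belong to S100a5 alone in this annotation. The 250 bases before its RefSeq start (GRCm38.p6, chr3:90608272-90608521, plus strand) are shown because the RNA of this gene is the measurement the results turn on. Capitals mark the inverted CCAAT box, whose first base lies 97 bases before the start.

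S100a5 promoter: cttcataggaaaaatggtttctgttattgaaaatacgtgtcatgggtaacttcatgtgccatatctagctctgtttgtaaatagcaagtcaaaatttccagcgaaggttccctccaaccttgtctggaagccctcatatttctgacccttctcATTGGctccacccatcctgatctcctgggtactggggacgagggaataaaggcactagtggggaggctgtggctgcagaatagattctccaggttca

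On both strands of this window the letters TGACG (the core of the cAMP response element), TGANTCA (an AP-1 site), CCCNNGGG (the core of sites bound by the OSN factor EBF) and TAAT (a homeodomain core) occurred 0 times. Among the 32851 RefSeq promoter windows of 250 bases, TGACG was found in 17.8%, TGANTCA in 6.75%, CCCNNGGG in 11.8% and TAAT in 54.9%. CCAAT was found in 33.8% and TATAAA, absent from the S100a5 window, in 12.4%. These last 2 motifs were added after the sequence had been seen. The window precedes the start of the longer transcript only, and the bases before the start of the shorter one were not searched.

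S100a5 RNA was much lower in Kir2.1 mice than in their littermates. The control pups had 6859, 6774 and 6616 normalized counts, and the Kir2.1 pups had 1976, 2180 and 1882. All 3 Kir2.1 mice lay far below all 3 controls, and the groups did not overlap, as in 9.04% of all tested genes in that direction. The means were 6750 ± 123 and 2013 ± 152 (SD, n = 3 each), so that Kir2.1 mice held 29.8% of the control level. On the log2(value + 1) scale the difference was -1.75 (SE 0.07, 95% interval -1.92 to -1.57), with limma's adjusted p = 0.000215. The genes called at an adjusted p under 0.05 made up 0.353% of the 19807 genes tested in this comparison, and those called lower 0.278%. S100a5 ranked number 4 by p-value. Kcnj2, the gene of the introduced channel, was 986, 1074 and 1274 in controls and 17926, 18530 and 24193 in Kir2.1 mice. The channel gene was thus far higher in each of the 3 libraries labelled Kir2.1-Off than in any control.

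After PEA exposure S100a5 was slightly higher, by an amount that did not pass the test. The unexposed pups had 1838, 1611, 1626 and 1671 normalized counts, and the exposed pups had 1877, 2169, 1803 and 1980. The groups overlapped, since the lowest exposed pup (1803) was under the highest unexposed pup (1838), while the other 3 exposed pups were above every unexposed pup. The means were 1686 ± 104 and 1957 ± 159 (SD, n = 4 each), a ratio of 1.16. The log2 difference was 0.21 (SE 0.09, 95% interval 0.01 to 0.42), with an adjusted p = 0.319 and an unadjusted p = 0.0438 from limma's fit across all genes. An exact two-sided permutation test of this gene alone gave p = 0.0571. Of the 17322 genes tested for PEA, 15.0% had an unadjusted p under 0.05, 8.93% with a rise, and 0.179% passed after adjustment, and 22.6% had a higher log2 difference than S100a5. Whether S100a5 responded differently in the 2 experiments was not tested, because the tables were normalized separately and the libraries were made in different ways. The plot of S100a5 by mouse shows both sets of values.

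**Figure D1:**
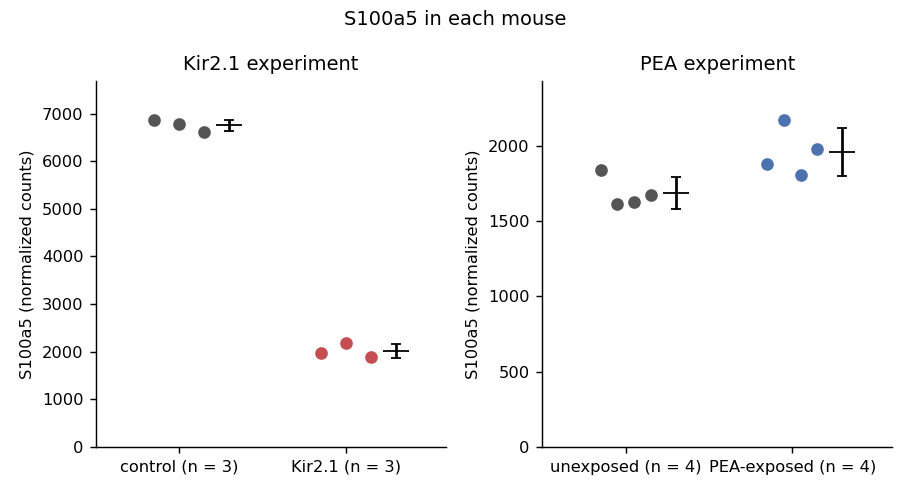
S100a5 in normalized counts (vertical axes, starting at 0) for each mouse of the Kir2.1 experiment (left) and the PEA experiment (right); points are mice, and the bars beside them give the mean and SD. The 3 Kir2.1 mice sit between 1882 and 2180, all below the controls at 6616 to 6859, whereas the exposed and unexposed pups overlap; the 2 axes are not on a common scale.

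S100a5 was a strongly expressed gene whose place in the ranking moved with Kir2.1. Among the genes above 0 in each library, it ranked 777 to 885 from the top in the 3 controls and 3911 to 4639 in the 3 Kir2.1 mice. With PEA the ranks were 1095 to 1340 in unexposed and 759 to 1058 in exposed pups. Per kb of the longest coding transcript, the mean S100a5 level in Kir2.1 controls was 15661 normalized counts, rank 125 of 19405 genes and next to Omp (rank 127, 15550 per kb), the abundant olfactory marker protein. In Kir2.1 mice the S100a5 level per kb was 4670, rank 474. Its rank per kb was 125 in unexposed and 114 in PEA-exposed pups, of 17009 genes. Levels of the 2 experiments cannot be set against each other, so the 4 groups can be ordered only within each experiment: controls above Kir2.1 mice beyond their spread, and exposed and unexposed pups not separated.

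The S100a5 fall was among the largest of the genes with a high mean level. Over all tested genes 122 had a more negative log2 difference, and the neighbours of S100a5 in that order were the weakly expressed odorant receptor genes Olfr725 (-1.75, SE 1.11, adjusted p = 0.648) and Olfr887 (-1.75, SE 0.49, adjusted p = 0.248). Among the 7306 genes with a mean of at least 10 on the log2 scale, only Auts2 (-1.92, SE 0.50, adjusted p = 0.218) and Zfp865 (-1.78, SE 0.75, adjusted p = 0.440) had more negative differences, and neither passed limma's test. Kirrel2 came directly after S100a5, with nearly the same difference (-1.75, SE 0.10, limma's adjusted p = 0.00128). S100a5 also varied little between mice of a group. Its residual SD was 0.08 on the log2 scale, against a median of 0.18 over all genes and 0.11 over the genes at that level. Among the PEA pups its residual SD was 0.10, against medians of 0.26 and 0.17, and its neighbours in the order of log2 differences were Frem2 and Stxbp2, both at 0.21, with adjusted p = 0.617 and 0.557.

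**Figure D2:**
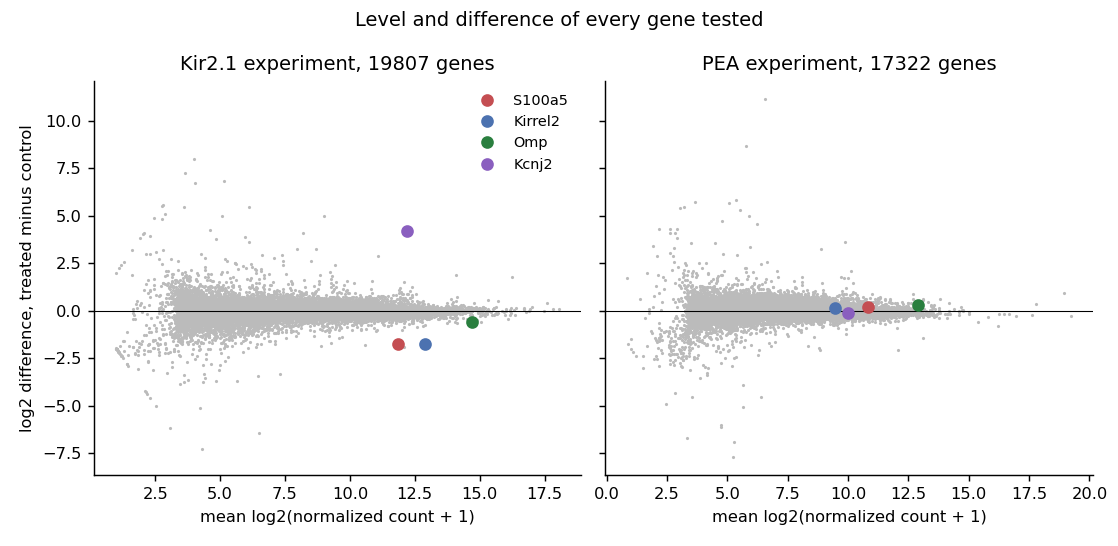
Every gene tested, by its mean level (horizontal axis, log2 of normalized count + 1) and its log2 difference, treated minus control (vertical axis), in the Kir2.1 (left) and PEA (right) experiments; grey points are genes, with 4 named in colour. At its level, S100a5 lies at the lower edge of the left cloud (-1.75) beside Kirrel2 (-1.75), and inside the right cloud (0.21).

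Markers of mature OSNs were also lower in Kir2.1 mice, by less than S100a5. All 10 genes of a fixed marker list (Omp, Gnal, Adcy3, Cnga2, Cnga4, Cngb1, Ano2, Stoml3, Rtp1 and Gng13) had negative log2 differences, with a median of -0.40 against 0.01 over all genes. All 10 had an unadjusted p under 0.05 in limma's fit, a count without the share of all tested genes lower by that rule beside it. Only Omp passed after adjustment, where 0.278% of all tested genes were called lower. Their summed level was 133835 to 148726 in controls and 98674 to 111379 in Kir2.1 mice, and none was at 0. Omp itself was 31936, 31853 and 36226 in controls and 21062, 21452 and 23516 in Kir2.1 mice, a log2 difference of -0.60 (SE 0.08, limma's adjusted p = 0.0466). That call was lost without any single mouse of the 6, with an adjusted p of 0.0704 to 0.175. In bulk tissue, fewer OSNs and less RNA per OSN cannot be told apart.

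S100a5 remained lower when it was set against these markers. Per 100 normalized counts of Omp, S100a5 was 21.5, 21.3 and 18.3 in controls and 9.38, 10.2 and 8.0 in Kir2.1 mice. The lowest control was well above the highest Kir2.1 mouse. The difference of the log2 ratios was -1.15, so that the ratio in Kir2.1 mice was 45.1% of that in controls, with an exact two-sided permutation p = 0.1, the smallest that 3 mice against 3 can give. Against each of the other 9 markers, the difference lay between -1.41 (Cnga2) and -1.21 (Adcy3), and against the mean log2 level of all 10 it was -1.33. The groups did not overlap for any of these 11 references. All 11 ratios use the same S100a5 values, and 1 reference is the mean of the other 10, so they are not separate observations. With Omp as a covariate in limma's fit, the S100a5 difference was -2.02 (SE 0.27) and no longer passed (adjusted p = 0.134), in a fit that called 5 genes in all.

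With PEA exposure the relation to Omp did not change detectably. S100a5 per 100 counts of Omp was 27.3, 22.6, 26.7 and 22.8 in unexposed and 25.0, 21.5, 21.4 and 25.3 in exposed pups. The groups overlapped over most of their range. The log2 ratio differed by -0.09 (exact two-sided permutation p = 0.4, with 0.0286 the smallest possible). Omp was itself higher in exposed pups, by 0.31 on the log2 scale (limma's adjusted p = 0.252), and the sign depended on the marker: the difference was 0.02 with Adcy3 (exact permutation p = 0.914) and 0.22 with the mean of the 10 markers (exact permutation p = 0.0857). With Gnal, Cnga2 and Stoml3 as the reference it was 0.58, 0.39 and 0.28, and for those 3 of the 10 single markers the groups did not overlap (exact permutation p = 0.0286 each, not adjusted for the number of references). These ratios share the same S100a5 values, and Gnal itself had the lowest log2 difference of the 10 markers in exposed pups (-0.37).

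**Figure D3:**
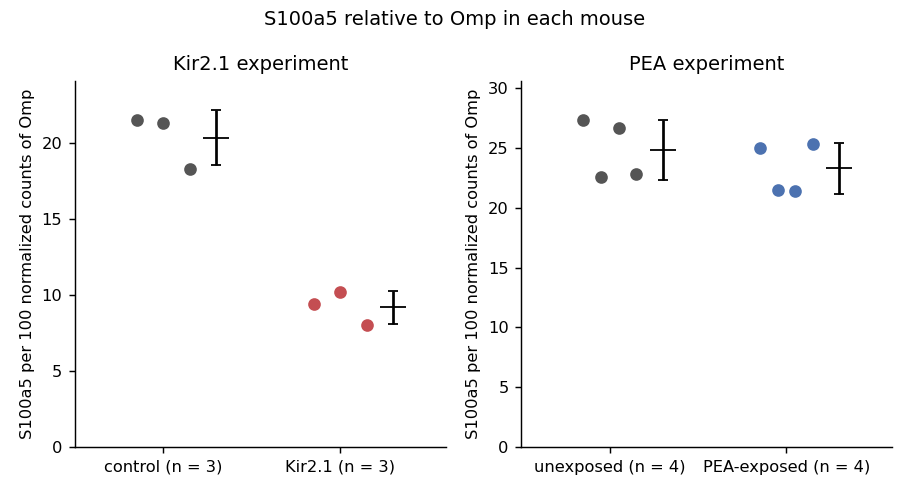
S100a5 per 100 normalized counts of Omp (vertical axes, starting at 0) in each mouse of the Kir2.1 (left) and PEA (right) experiments; points are mice, and the bars give the mean and SD. Kir2.1 mice lie at 8.0 to 10.2 and their controls at 18.3 to 21.5, while exposed (21.4 to 25.3) and unexposed pups (22.6 to 27.3) overlap.

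Other cell types and library features moved less clearly. The 6 markers of immature OSNs, among them Gap43 and Gng8, had a median log2 difference of -0.01 in Kir2.1 mice, 3 lower and 3 higher, with 0 past an adjusted or unadjusted p of 0.05 in limma. The 5 markers of respiratory ciliated cells were all higher there, with sums of 13298.5 to 16249.5 in controls and 16791.5 to 25109.4 in Kir2.1 mice. Of these 5, 0 were called and 2 were higher at an unadjusted p under 0.05, as were 4.93% of all tested genes. Markers of macrophages (5 of 5, sums of 2549.9 to 2719.7 in controls and 2796.6 to 3840.0 in Kir2.1 mice) and of horizontal basal cells (5 of 5, sums of 3878 to 5895 and 4320 to 11125) were also all higher, with 0 past an adjusted or unadjusted p of 0.05 in limma. In PEA-exposed pups 5 of 5 horizontal basal cell markers (sums of 971 to 1820 in unexposed and 1391 to 1725 in exposed pups) and 5 of 6 sustentacular cell markers (35758 to 43343 and 40274 to 46546) were higher, each with 0 called and 2 at an unadjusted p under 0.05. Of all genes tested for PEA, 8.93% were higher at that unadjusted p. The part of these cell types in the S100a5 results was not tested. The 5 genes listed as Bowman gland markers ranged from 12058 to 773373 in sum between single control libraries, and from 55347 to 705466 between Kir2.1 libraries. Of these 5, 0 were called and 4 were higher in Kir2.1 mice. The other, Gldc, was lower (log2 difference -0.35), with an unadjusted p under 0.05 in limma. Genes for vomeronasal receptors varied widely between libraries. Their mean log2 value was 3.76 in control 1 of the Kir2.1 experiment and 1.02 to 1.10 in the other 5 libraries, and 88 of the 92 tested were lower in Kir2.1 mice. Without control 1 the S100a5 difference was -1.74 (adjusted p = 0.00424), and with that mean as a covariate it was -1.73 (adjusted p = 0.00421), both by limma. Because that mean mainly sets control 1 apart from the other 5 libraries, these 2 fits are not separate checks. For PEA the receptor mean was 3.60, 2.82, 2.31 and 0.77 in unexposed and 3.16, 1.02, 0.81 and 0.79 in exposed pups. Of the 119 receptor genes tested for PEA, 117 were lower in exposed pups and 0 were called. With the receptor mean as a covariate the S100a5 difference was 0.22 (limma's adjusted p = 0.472). Xist and Ddx3y showed both sexes in every group. With Xist as a covariate the S100a5 difference was -1.76 (adjusted p = 0.00118) for Kir2.1 and 0.21 (adjusted p = 0.407) for PEA.

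Within its family, S100a5 alone passed the test. Of 17 listed S100 genes, 15 had a mean of at least 10 normalized counts in the Kir2.1 experiment, and 1 was called, S100a5. Of the other 14, 2 were lower and 12 higher, with a median of 0.22, and the split was the same after quantile normalization and after median centring. Per kb, S100a5 had the highest level of the family in controls, followed by S100a11 (6246 normalized counts per kb) and S100a1 (5660 per kb). In Kir2.1 mice S100a11 (7567 per kb) and S100a1 (6494 per kb) had higher levels per kb than S100a5, and S100a6 (4671 per kb) was level with it.

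None of the neighbours of S100a5 on chromosome 3 passed the test. S100a4, linked to cell motility, was 354, 267 and 316 in controls and 440, 436 and 437 in Kir2.1 mice. Every Kir2.1 mouse was above every control, as in 7.26% of all tested genes, and the log2 difference of 0.49 did not pass after adjustment (SE 0.13, limma's adjusted p = 0.209). S100a6, a widely expressed member, was 2628, 2730 and 1794 in controls and 4168, 3719 and 2357 in Kir2.1 mice, with overlap and a log2 difference of 0.50 (SE 0.24, adjusted p = 0.519). S100a3, known from hair follicles, was weakly expressed, at 47.2, 36.3 and 38.3 against 27.7, 9.43 and 41.8 (log2 difference -0.82, SE 0.51, adjusted p = 0.643). S100a2, which lies inside the span of S100a3, was not on the list. It had means of 51.1 ± 23.3 in controls and 3.64 ± 3.04 in Kir2.1 mice, a log2 difference of -3.64 (SE 0.68, limma's adjusted p = 0.105). Gm42674, whose span crosses S100a3 and S100a4, had means of 96.0 ± 44.7 and 108 ± 33.5. Elsewhere in the family, S100z was lower (-0.39, adjusted p = 0.236), S100b (0.48, adjusted p = 0.384) and S100a10 (0.30, adjusted p = 0.322) were higher, and the neutrophil genes S100a8 (0.11) and S100a9 (0.20) overlapped between groups.

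Among PEA pups 13 S100 genes could be tested, 0 were called by limma, and 1 of them, S100a5, had an unadjusted p under 0.05. That unadjusted p was reached by 15.0% of all tested genes. S100a5 had the highest log2 difference of the 13 (0.21) and S100a13 the lowest (-0.27). S100a4 and S100a6 had log2 differences of -0.26 and -0.21 (adjusted p = 0.663 and 0.517). S100a7l2 was listed at 0 in all 8 libraries.

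Several other genes known to follow OSN activity were also lower in Kir2.1 mice. The list was drawn from general knowledge with results of these data known, so its direction is no independent evidence. Of 10 genes expected to be higher with activity, beside S100a5 itself, 5 were called lower, against 0.278% of all tested genes, 0 were called higher, and the median log2 difference was -0.72 against 0.01 over all genes. Kirrel2, an adhesion molecule that sorts OSN axons, was 14115, 14413 and 12834 in controls and 3558, 4507 and 4315 in Kir2.1 mice. The groups did not overlap, with a log2 difference of -1.75 (SE 0.10, limma's adjusted p = 0.00128). Rasgrp4, an activator of Ras that responds to calcium and diacylglycerol signals, was 892, 957 and 868 in controls and 222, 291 and 246 in Kir2.1 mice (-1.84, SE 0.12, adjusted p = 0.00254). Its 3 Kir2.1 values also lay far below every control.

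The remaining called members fell by less than S100a5. Lrrc3b, which encodes a leucine-rich repeat protein, fell by 0.91 on the log2 scale (adjusted p = 0.0126). Pcp4l1, a relative of the small neuronal protein PEP-19, fell by 0.80 (adjusted p = 0.0223), and Slc17a6, the vesicular glutamate transporter VGLUT2, by 0.76 (adjusted p = 0.00958). Leaving out each mouse in turn, Kirrel2 and Rasgrp4 were called in 6 of 6 fits. Slc17a6 was called in 3 (adjusted p from 0.0337 to 0.0571), and Lrrc3b (0.0322 to 0.0780) and Pcp4l1 (0.0311 to 0.127) in 1. Without the variance trend, and with the vomeronasal receptor mean as a covariate, Kirrel2 and Rasgrp4 were called and Slc17a6, Lrrc3b and Pcp4l1 were not. S100a5 itself was called in both of those fits and in all 6 that left out a mouse, the latter with an adjusted p of 0.00164 to 0.00447. Plcxd3 (-0.68), Kcnn2 (-0.64) and Pcdh10 (-0.52) did not pass, and Nrp1 (-0.01) and Doc2g (0.16) were near 0.

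Of the 3 genes listed as lower with activity, the Eph receptor gene Epha5 was called. It fell by 0.99 on the log2 scale (limma's adjusted p = 0.0180), and was called in 1 of the 6 fits that left out a mouse (0.0479 to 0.109). The placement of Epha5 on that side of the list is uncertain, since the study treats it as a gene that goes down when activity is lost, and no direction is read from it. Kirrel3 (0.13, adjusted p = 0.704) and H2bc21, a histone gene also called Hist2h2be (-0.27, adjusted p = 0.256), were not called. The study, using DESeq2, reports Kirrel3 as upregulated in Kir2.1 mice. The difference here had that sign without passing limma's test. With PEA, 0 of the 13 testable genes of the whole list, S100a5 included, were called by limma, and the median was 0.01. At an unadjusted p under 0.05, 1 was higher and 2 were lower, against 15.0% of all tested genes in either direction. Lrrc3b, at 218, 226, 207 and 303 in unexposed and 171, 157, 191 and 121 in exposed pups, did not overlap between groups, as did 3.86% of all tested genes in that direction (log2 difference -0.57, adjusted p = 0.181). Kirrel2 (0.16, adjusted p = 0.677), Rasgrp4 (0.61, adjusted p = 0.474), Pcp4l1 (0.16, adjusted p = 0.517), Slc17a6 (-0.10, adjusted p = 0.732) and Kirrel3 (-0.05, adjusted p = 0.917) overlapped.

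**Figure D4:**
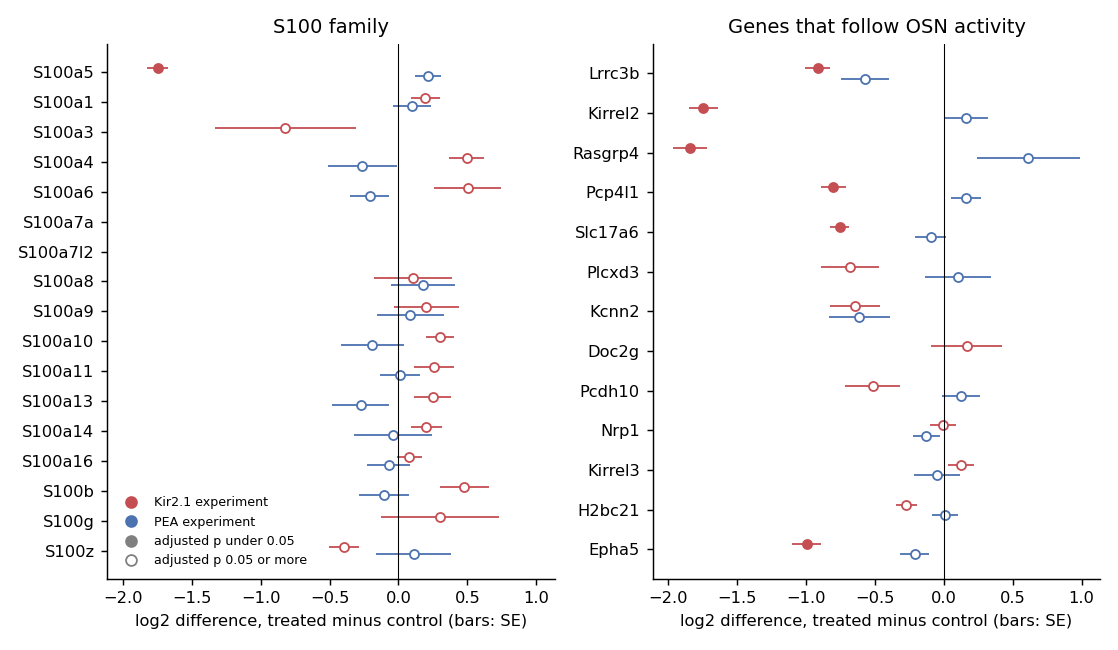
Log2 difference, treated minus control (horizontal axes), of the S100 family (left) and of genes that follow OSN activity (right) in the Kir2.1 (red) and PEA (blue) experiments; bars are SE, filled points passed an adjusted p of 0.05, and genes with a mean under 10 have no point. S100a5 is the only filled point on the left, at -1.75, and on the right 6 genes are filled in the Kir2.1 experiment and 0 in the PEA experiment.

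A few other calcium-handling genes passed the test, in lists set against the 0.353% of all genes that did. Of 28 other EF-hand calcium sensors listed, 26 could be tested in the Kir2.1 experiment and 1 was called, Vsnl1, which encodes visinin-like protein and fell by 0.84 (limma's adjusted p = 0.0223; called in 1 of the 6 fits that left out a mouse, 0.0382 to 0.127). The median of the 26 was -0.06. Of 20 genes for calcium and cAMP signalling in cilia, 18 were lower and 2 were called, the calcium-activated phosphodiesterase gene Pde1c (-0.65, adjusted p = 0.0223) and Umodl1, known as olfactorin (-0.66, adjusted p = 0.0242). Each was called in 1 of the 6 fits that left out a mouse (0.0455 to 0.127 for both), and the median of the 20 was -0.36. In the PEA experiment 0 of the 24 sensors and 0 of the 20 cilia genes tested were called by limma. At an unadjusted p under 0.05 there were 3 sensors and 2 cilia genes, no larger a share than the 15.0% of all tested genes.

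Immediate early genes are the fast transcriptional response of neurons to activity. Of 20 tested in the Kir2.1 experiment, 0 were called by limma in either direction. At an unadjusted p under 0.05, 4 were higher and 0 lower, while 4.93% of all genes were higher by that rule. Egr1 had means of 550 ± 217 in controls and 1007 ± 206 in Kir2.1 mice (log2 difference 0.92, adjusted p = 0.269), and Fos had 308 ± 51.3 and 399 ± 44.0 (0.38, adjusted p = 0.415). In the PEA experiment 0 of 15 were called. At an unadjusted p under 0.05, 1 was higher and 1 lower, against 15.0% of all tested genes in either direction.

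The genes whose pattern was most like that of S100a5 were sought over the 14 mice, with each log2 value centred on the mean of its experiment, among 16704 other genes with a mean of at least 10 in both. The points share their libraries, and the 6 mice of the Kir2.1 experiment, with their wide gap, carry most of the likeness. The highest Pearson coefficients belonged to the keratin pseudogene Krt8-ps (0.97), the sodium channel subunit gene Scn4b (0.96), Kirrel2 (0.95) and Sema7a (0.95), a membrane-anchored semaphorin. They were followed by the sodium-calcium exchanger gene Slc8a1 (0.92), Pcdhb1 (0.91), Chgb (0.91), Pcp4l1 (0.91), Nefl (0.90) and Scn3b (0.90). Spearman coefficients for these 10 genes ran from 0.68 (Slc8a1) to 0.94 (Sema7a).

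These genes differed in how far they fell. Krt8-ps was 911, 694 and 979 in controls and 4.85, 14.5 and 9.18 in Kir2.1 mice, a larger drop than that of S100a5. Scn4b was 5643, 6582 and 5570 in controls and 3174, 2891 and 2776 in Kir2.1 mice, a log2 difference of -1.01 (limma's adjusted p = 0.00958). It was called in 6 of 6 fits that left out a mouse, but neither without the variance trend (adjusted p = 0.0705) nor with the vomeronasal receptor mean as a covariate (0.0519). Sema7a (-0.93), Chgb (-0.90) and Nefl (-1.05) were called in the fit of all 6 mice, and in 1, 0 and 0 of the 6 fits that left out a mouse. The lowest coefficients belonged to Kcnj2 (-0.99), Gm4353 (-0.96), Thbs1 (-0.94), Spred1 (-0.93) and Cldn11 (-0.93). Gm4353 was listed at 0 in the 3 controls and at 56.7, 50.4 and 30.6 in Kir2.1 mice.

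Within groups the order of the genes was another. With each value centred on its group mean, so that the fall itself was removed, the highest coefficients were Swsap1 (0.94), Ercc2 (0.88), Gm6682 (0.88), Gm3226 (0.85) and Nefl (0.85). Among the first 10 genes, Nefl and Chgb (0.78) had the highest coefficients of this kind, while Kirrel2 had 0.25, Scn4b 0.27 and Pcp4l1 -0.09. Groups held 3 or 4 mice, and S100a5 varied little within them (residual SD 0.08 and 0.10 on the log2 scale). These coefficients therefore cannot settle whether mice of a group high in S100a5 were also high in Kirrel2 or Scn4b. The highest coefficients were picked from 16704 genes and were not tested.

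**Figure D5:**
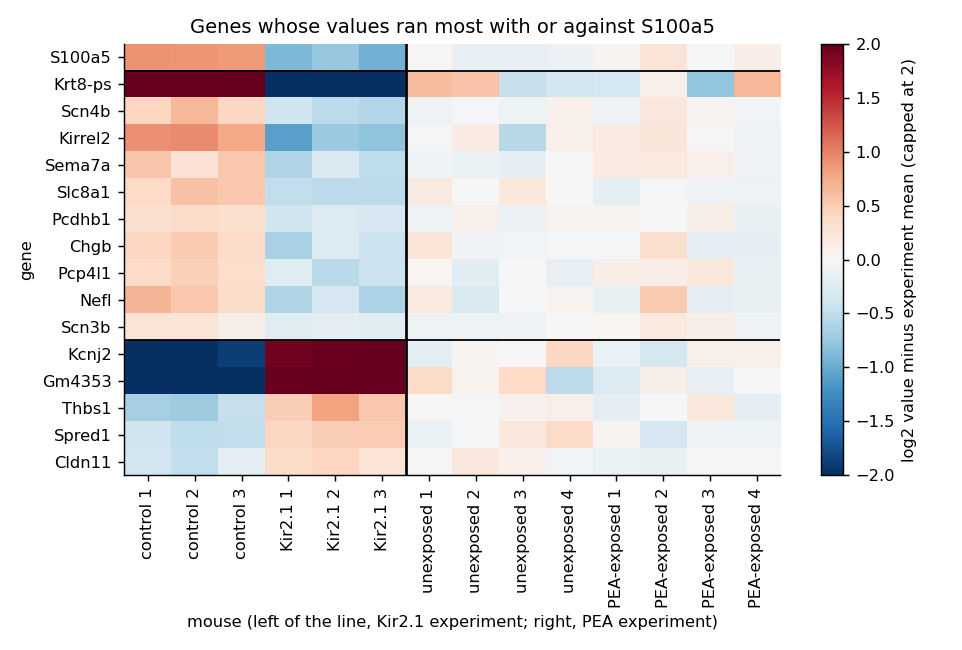
Log2 value of S100a5, of the 10 genes most like it and of the 5 most opposed (rows) in each mouse (columns), as the difference from the mean of its experiment; red is higher, blue lower, and colours are capped at 2. In the Kir2.1 experiment the upper 11 rows change from red in controls to blue in Kir2.1 mice and the lower 5 do the reverse. In the PEA experiment the rows are mostly pale. The strongest values there are in Krt8-ps (-0.78 to 0.67), followed by single mice in Kirrel2 (-0.56), Gm4353 (-0.53) and Nefl (0.52).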

How the data were processed

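The deposited values are normalized counts (unit signal): per the labels and methods, the authors quantified reads with Salmon 1.3.0 against GRCm38 (Ensembl 100), imported gene estimates and divided them by DESeq2 1.30.0 size factors, separately for each experiment. For Kir2.1, poly-A RNA was sequenced at 40 bp without strand information, though Salmon ran in its reverse-stranded mode. For PEA, rRNA-depleted total RNA was sequenced at 150 bp with strand. Whole reads could not be recovered, so the depth and the counting error are unknown; column sums were 3.30e+07 to 3.42e+07 and 1.15e+07 to 1.25e+07 normalized counts.

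Each experiment was fitted with limma 3.58.1 (R 4.3.3, mean-variance trend, tested on simulated data) on log2(value + 1), over genes with a mean of at least 10, with Benjamini-Hochberg adjustment and a threshold of 0.05. Ratios to Omp were tested by exact permutation over mice. Lists are described by counts, without a set test. Genes were named by rule: S100a5, called or neighbouring members of the S100, activity and early gene lists, the mature OSN markers, the genes most like S100a5 (the 10 highest and 5 lowest coefficients, and 5 within groups) and those ranked next to it; Auts2, Zfp865 and single members of other lists were added after their values were seen. S100a5 and all lists were chosen with earlier results of these data known. Nothing states that mice within a group came from separate litters. Alternatives covered the pseudocount, filter, trend, weights, scaling, block, covariates and each mouse left out.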

Additional observations from a re-analysis of the deposited data

How the results depend on the processing

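The Kir2.1 difference of S100a5 kept its sign and its call in 18 of 19 alternatives. It ran from -1.81 to -1.70 with each mouse left out and from -1.79 to -1.73 in 12 other settings (adjusted p at most 0.0112, reached with the replicate block). With Omp as a covariate, which itself did not overlap between the groups, it was -2.02 and not called (adjusted p = 0.134). The PEA difference was positive and not called in all 21 alternatives: 0.16 to 0.26 with each mouse left out (adjusted p from 0.258 to 0.543), 0.16 to 0.29 in 12 others, and 0.12 with Omp as a covariate. The ratio to Omp in Kir2.1 mice ran from -1.23 to -1.05 with each mouse left out. In the PEA experiment it was 0.22 with the mean of 10 markers and 0.0180 with Adcy3, the reverse of -0.09 with Omp.

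Over all tested genes same-numbered mice showed little shared deviation, so the numbers were not taken as pairs. Correlations were -0.06, -0.01 and 0.16 for Kir2.1, and 0.13, -0.02, -0.05 and 0.10 for PEA. In the Kir2.1 experiment, mice 1 and 2 of both groups were high in Xist and mouse 3 of both in Ddx3y. There the replicate block narrowed the SE of S100a6 (0.243 to 0.081) and Omp (0.084 to 0.055), and widened that of Epha5 (0.105 to 0.120). With the replicate block, S100a5 was at -1.75 and 0.21 (adjusted p = 0.0112 and 0.423) and the ratio to Omp in Kir2.1 mice had an exact sign-flip p of 0.25, the smallest 3 pairs can give.

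The count of genes called moved more. For Kir2.1 it was 70, and 20 without the trend, 9 with the replicate block, 23, 44 and 5 with the vomeronasal, Xist and Omp covariates, and 23 to 44 with each mouse left out. For PEA it was 31, and 52 without a filter, 117 with sample weights, 19 and 6 with the vomeronasal and Omp covariates, and 19 to 43 with each mouse left out. The study, using DESeq2 at an FDR of 0.05, reports more changed genes in each experiment than any of these fits called. Some of the genes named beside S100a5 were run through the same alternatives, a choice made after seeing the data. Others were not run, among them Krt8-ps, Kcnj2, Slc8a1, Pcdhb1, Scn3b, Gm4353, Thbs1, Spred1, Cldn11 and S100a2. Of those run and called in Kir2.1 mice, only Kirrel2 and Rasgrp4 (adjusted p = 0.0295 for both) kept their call with the replicate block. Omp (0.0799), Slc17a6 (0.0786), Lrrc3b (0.0802), Pcp4l1 (0.104), Epha5 (0.106), Vsnl1 (0.103), Pde1c (0.0799), Umodl1 (0.0747), Scn4b (0.0747), Sema7a (0.141), Chgb (0.104) and Nefl (0.106) lost it. Those 12 also lost it without the trend (0.0687 to 0.148), and all but Epha5 with the vomeronasal covariate (0.0519 to 0.146); with the Omp covariate none of these genes (Omp not run) was called. With Omp as a covariate, S100a3 (0.71) and S100a6 (-1.84) in Kir2.1 mice and S100a6 (0.0505) and Kirrel2 (-0.17) in PEA pups changed sign, and Kirrel3 in PEA pups ran from -0.139 to 0.0770 with each mouse left out. The causes were not tested.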
